A study of Mus musculus with 15 samples.

Results

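Collagen genes other than those of the core basement membrane collagen IV network were examined in the podocyte fraction of young and aged mouse kidneys. The members were the protein-coding genes whose symbol has the form Col, a number, a and a number, without Col4a1 to Col4a5, which made 39 genes of the 46078 in the deposited table and of 44 collagen genes in all. The rule reads symbols and no measured value. By class, 11 members were fibrillar collagens, 9 were FACITs (collagens that sit on the surface of fibrils), 6 were beaded filament collagens, 5 were network and anchoring collagens, 4 were transmembrane collagens, 2 were multiplexins (collagens with many interruptions of the triple helix) and 2 belonged to none of these. Col4a6, another collagen IV chain, is among them because the symbol rule left out only Col4a1 to Col4a5.

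Collagens are built from chains that wind into a triple helix and then assemble into fibrils, filaments or networks. In the kidney, fibrillar collagens are made mainly by fibroblasts and other stromal cells and are known for their accumulation in scarred and aged tissue, whereas podocytes are known above all for the collagen IV chains of the glomerular basement membrane. FACITs such as Col12a1, Col14a1 and Col16a1 modify fibril surfaces, collagen VI chains form filaments around cells, and the multiplexins Col15a1 and Col18a1 lie in basement membrane zones.

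The libraries came from male C57BL/6J mice, from cells captured with magnetic beads by antibodies to nephrin, a surface protein of podocytes, after digestion of the kidney cortex. Young mice were 4 months old and not injected, and aged mice were 21 months old when randomized and received 12 mg/kg weekly for 8 weeks of either an anti-PD-1 antibody (RMP1-14, the aged aPD1ab group) or an isotype control antibody (2A3, the aged IgG2a group). Counts of 5 young, 4 aged IgG2a and 4 aged aPD1ab libraries were used, grouped by the library numbers printed in a plot of the study since the sample labels do not carry them, 1 mouse each, with totals of 19912969 to 32717100 counts. Age and injection cannot be told apart when aged groups are set against young mice. Fewer cells of a type and less RNA per cell cannot be told apart in these bulk libraries.

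Aged IgG2a replicate 1 lay at -16.4 on the first principal component of all genes (40.7% of the variance), among the other groups (-64.9 to 10.9) and away from the other aged IgG2a libraries (71.6 to 84.2). Results on members that rest on this group are therefore given with and without it. Summed markers of the proximal tubule were at 5982 to 9416 CPM (counts scaled to a common library size by TMM) in young, 4653 in aged IgG2a replicate 1, 925 to 1501 in the other aged IgG2a and 4908 to 14625 in aged aPD1ab libraries, the last value from aged aPD1ab replicate 2. Markers of podocytes summed to 886 to 1436, 535 to 730 and 276 to 874 CPM in young, aged IgG2a and aged aPD1ab libraries, below the proximal tubule sum in every library, so the fraction was not podocytes alone and a collagen level cannot be assigned to a cell type.

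Promoter windows are shown for the 5 members that passed the test in at least 1 comparison over every mapped library, since these genes carry the changes described below. Each window runs from 250 bases before to 50 bases after the RefSeq start of transcription (GRCm38.p6), 5′ to 3′ on the strand of the gene. Capitals mark the GC box (GGGCGG, searched on both strands, so also read as CCGCCC).
Col4a6 (chrX:141474027-141474326, - strand): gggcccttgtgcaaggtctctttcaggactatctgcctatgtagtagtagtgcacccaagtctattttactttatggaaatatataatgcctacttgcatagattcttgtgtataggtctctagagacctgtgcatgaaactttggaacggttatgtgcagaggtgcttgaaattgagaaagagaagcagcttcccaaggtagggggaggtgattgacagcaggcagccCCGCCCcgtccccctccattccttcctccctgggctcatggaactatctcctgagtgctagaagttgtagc
Col15a1 (chr4:47207762-47208061, + strand): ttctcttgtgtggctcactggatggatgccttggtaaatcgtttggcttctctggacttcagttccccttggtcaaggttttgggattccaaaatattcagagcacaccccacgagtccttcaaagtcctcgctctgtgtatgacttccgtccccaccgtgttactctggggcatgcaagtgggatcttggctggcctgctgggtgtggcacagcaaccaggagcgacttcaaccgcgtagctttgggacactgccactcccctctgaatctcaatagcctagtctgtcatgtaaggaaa
Col16a1 (chr4:130047590-130047889, + strand): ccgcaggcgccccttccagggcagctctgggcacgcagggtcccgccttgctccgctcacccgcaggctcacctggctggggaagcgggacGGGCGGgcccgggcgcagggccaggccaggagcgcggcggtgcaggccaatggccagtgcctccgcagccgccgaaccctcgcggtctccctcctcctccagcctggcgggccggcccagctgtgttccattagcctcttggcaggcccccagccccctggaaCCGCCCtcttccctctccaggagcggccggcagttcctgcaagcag
Col27a1 (chr4:63215162-63215461, + strand): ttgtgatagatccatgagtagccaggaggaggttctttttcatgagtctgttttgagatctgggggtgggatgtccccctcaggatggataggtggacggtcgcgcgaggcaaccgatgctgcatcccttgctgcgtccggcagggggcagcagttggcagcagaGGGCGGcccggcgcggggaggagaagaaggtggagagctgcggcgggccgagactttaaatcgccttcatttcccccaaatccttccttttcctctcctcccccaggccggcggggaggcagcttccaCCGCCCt
Col6a6 (chr9:105828036-105828335, - strand): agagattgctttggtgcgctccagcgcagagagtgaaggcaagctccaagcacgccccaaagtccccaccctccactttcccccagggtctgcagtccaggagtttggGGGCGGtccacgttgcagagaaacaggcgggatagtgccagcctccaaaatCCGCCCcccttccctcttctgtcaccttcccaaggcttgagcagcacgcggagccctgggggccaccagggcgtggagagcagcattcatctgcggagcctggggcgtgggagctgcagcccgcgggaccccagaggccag
Col16a1, Col27a1 and Col6a6 each held 2 GC boxes, Col4a6 held 1 and Col15a1 held 0. Of 32851 windows of this length in the table of all genes, 35.7% held the motif, as did 20 of the 34 windows of members. A match is a description of these letters and not a site of binding.

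Per exon length, Col18a1, the multiplexin whose C-terminal fragment is endostatin, was the highest member, at 87.1 ± 17.9 TPM (counts scaled by exon length and library total, SD, n = 5) in young libraries and a mean of 63.8 TPM over the 13. It alone took 36.2% to 55.9% of the 4990 to 16488 reads on members in a library. The next were Col5a2, a fibrillar chain, at 14.3 ± 4.08 TPM (SD, n = 5) in young libraries, Col27a1, a fibrillar collagen of cartilage, at 12.2 ± 1.34, Col14a1 at 10.4 ± 3.43 and Col15a1 at 9.98 ± 0.85. The young ranges of these 4 genes overlapped, so their order is not fixed. Col1a2, a chain of collagen I, followed at 3.63 ± 0.85 TPM. Of the 39 members, 14 had a mean of 1 TPM or more and 10 a mean under 0.1 TPM. Col9a1 and Col9a2, cartilage collagen IX chains, had 0 reads in all 13 libraries, where 3 counts would be 0.0843 to 0.207 CPM. Members together took 0.024% to 0.061% of all counts.

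**Figure D1:**
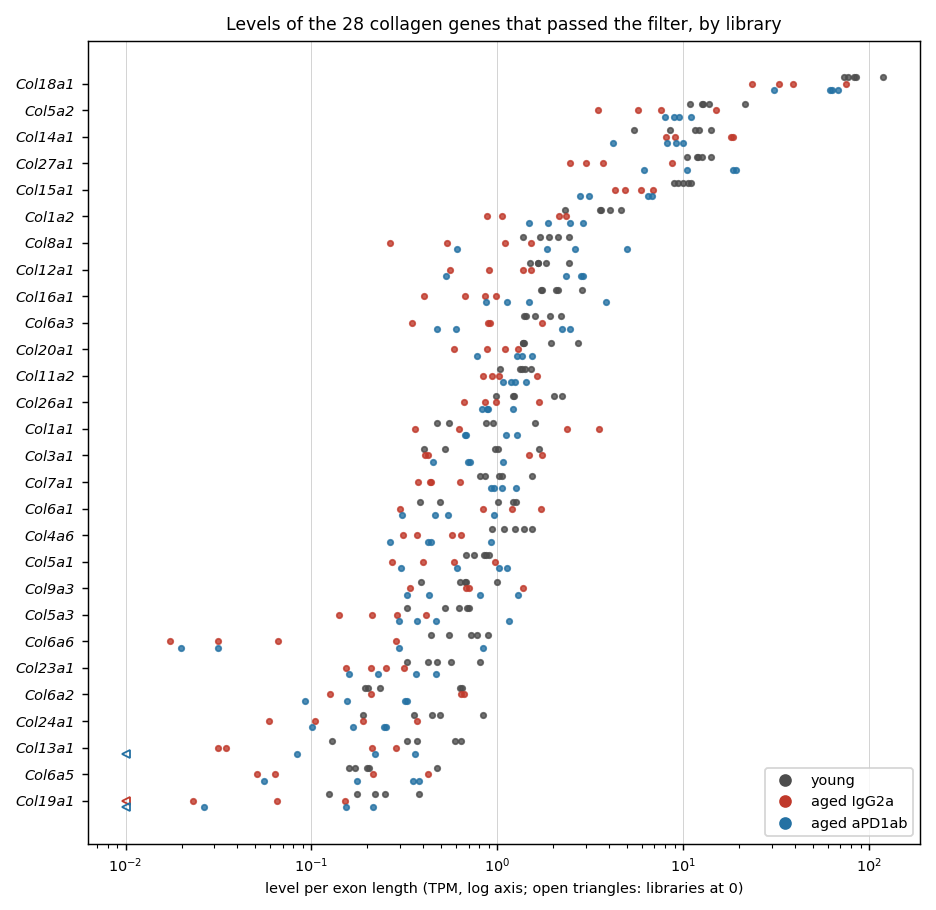
Level per exon length (TPM, log axis) of the 28 members that passed the filter on low counts in at least 1 comparison, a point for each library, coloured by group, with open triangles for libraries at 0. Col18a1 stands above every other member in each library, and Col5a2, Col14a1, Col27a1 and Col15a1 form the next tier.

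Counts of members called, by edgeR's quasi-likelihood test with p adjusted over the whole table and a threshold of 0.05, were small over every mapped library. With aged IgG2a against young mice, 28 members were tested, 0 were higher and 4 were lower (Col4a6, Col6a6, Col16a1 and Col27a1), beside 9.05% higher and 8.38% lower among all genes tested. That is 14.3% of the members lower, with a median log2 fold change of -0.20 over members and 0.04 over all genes. With aged aPD1ab against young mice, 0 of 28 were higher and 2 were lower (Col4a6 and Col15a1), 7.14%, beside 12.4% higher and 9.97% lower among all genes, with medians of -0.18 and 0.02. With aged aPD1ab against aged IgG2a mice, 0 of 26 members were called either way by edgeR, and 0.0% of all 15530 genes, of which 4341 had an unadjusted p under 0.05. In that comparison 5 members had an unadjusted p under 0.05 (Col27a1, Col14a1, Col15a1, Col7a1 and Col26a1). For this pair DESeq2 called 2 members higher (Col27a1 and Col7a1) and 1 lower (Col14a1), beside 8.95% higher and 6.33% lower among all genes. Limma called 2 higher (Col27a1 and Col7a1) and 8 lower, beside 20.9% and 18.9%. The 8 were Col14a1, Col15a1, Col1a1, Col26a1, Col3a1, Col6a1, Col6a2 and Col9a3. In 1 edgeR fit of all 3 groups 2 were higher (Col27a1 and Col7a1) and 2 lower (Col14a1 and Col15a1), beside 11.4% and 6.14%. For aged IgG2a against young mice, 7 members had an unadjusted p under 0.05, as did 5771 of 15953 genes. DESeq2 called 2 members higher (Col1a1 and Col14a1) and 5 lower in that comparison, beside 14.3% and 13.6% of all genes. The 5 were Col4a6, Col6a6, Col16a1, Col18a1 and Col27a1. Limma called 6 higher (Col1a1, Col3a1, Col6a1, Col9a3, Col11a2 and Col14a1) and 6 lower, beside 24.4% and 22.2%. Its 6 lower were the same 5 and Col19a1. For aged aPD1ab against young mice, 5 members had an unadjusted p under 0.05, as did 5893 of 15986 genes. DESeq2 called 0 higher and 3 lower (Col4a6, Col15a1 and Col18a1), beside 15.3% and 13.6% of all genes, and limma 0 higher and 4 lower, with Col6a6 added, beside 13.5% and 11.5%. With so few calls, nothing is read from these shares about the members as a group.

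The aged IgG2a counts turned on single libraries. Without aged IgG2a replicate 1, 5 members were higher (Col1a1, Col6a1, Col9a3, Col11a2 and Col14a1) and 7 lower (Col4a6, Col5a2, Col6a6, Col16a1, Col18a1, Col19a1 and Col27a1) than in young mice, beside 22.1% higher and 23.5% lower among all genes. Without it, aged aPD1ab mice had 1 member higher (Col27a1) and 4 lower (Col1a1, Col6a1, Col14a1 and Col15a1) than aged IgG2a mice, beside 17.1% and 13.2% of all genes. In the opposite direction, leaving out young replicate 1, 2 or 3 or aged IgG2a replicate 2, 3 or 4 ended all 4 calls of aged IgG2a against young mice. Leaving out young replicate 4 ended those of Col4a6 and Col6a6, and leaving out young replicate 5 those of Col4a6 and Col27a1. In these fits 1.6% to 4.72% of all genes were higher and 1.8% to 4.82% lower, beside 9.05% and 8.38% with every mapped library. Over all fits that left out a library, the log2 fold change was -0.76 to -0.59 for Col4a6 and -3.23 to -1.89 for Col6a6. It was -0.95 to -0.77 for Col16a1 and -1.11 to -0.69 for Col27a1. The 2 calls of aged aPD1ab against young mice remained in each of the 9 fits that left out a library.

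**Figure D2:**
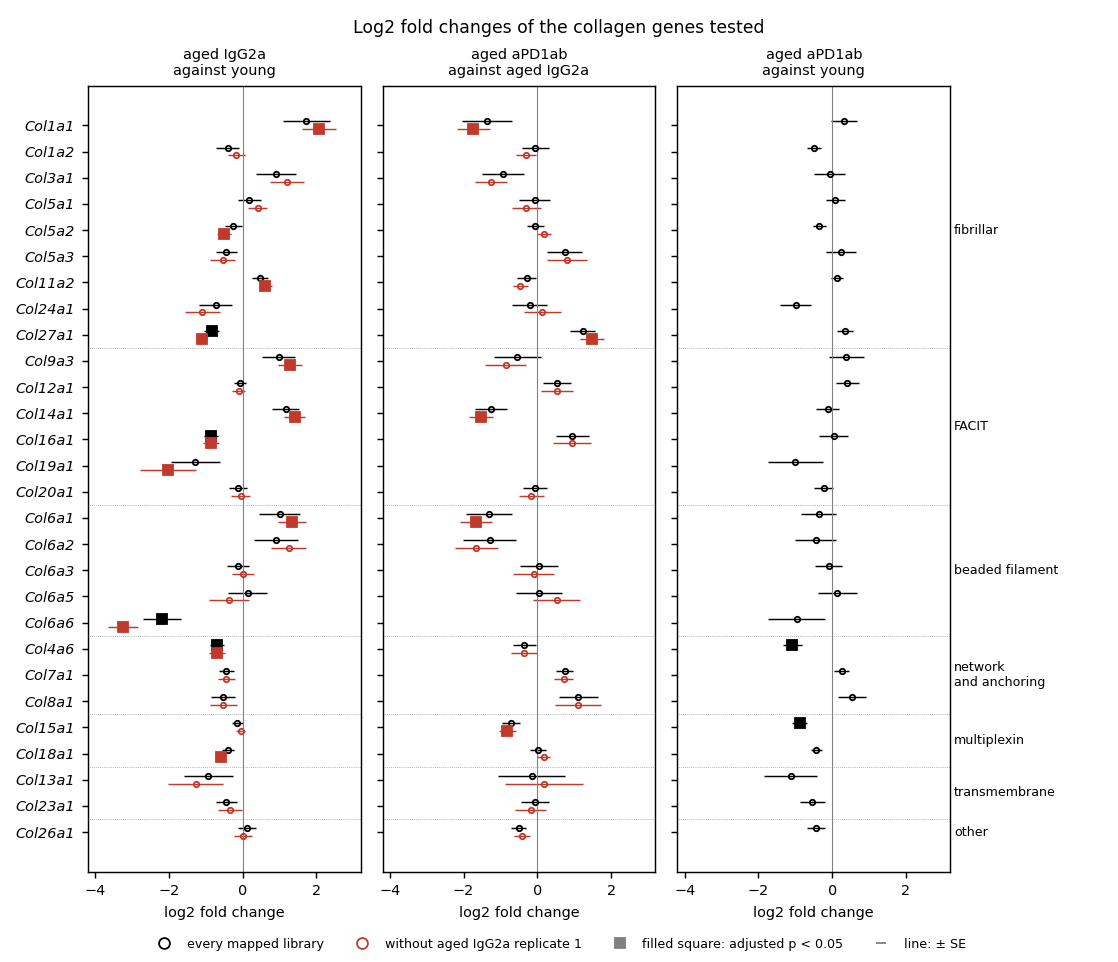
Log2 fold changes with standard errors (lines) of the 28 members tested, in 3 comparisons, ordered by class. Black marks use every mapped library, red marks leave out aged IgG2a replicate 1, and filled squares had an edgeR adjusted p under 0.05. Without that library 5 members were called higher and 7 lower in aged IgG2a than in young mice, and Col4a6 and Col15a1 were the members called lower in aged aPD1ab than in young mice.

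Among network and anchoring collagens, Col4a6 was lower in both aged groups. Col4a6 (ENSMUSG00000031273, chromosome X, 141165403 to 141474076, minus strand, GRCm38) encodes a collagen IV chain of Bowman's capsule and of smooth muscle basement membranes. It was at 3.57, 3.54, 3.33, 3.96 and 5.08 CPM in young libraries, at 2.29, 2.58, 1.78 and 2.56 in aged IgG2a and at 1.40, 1.63, 1.30 and 2.87 in aged aPD1ab libraries. Every aged library lay below every young one. The log2 fold change was -1.08 (SE 0.27, edgeR adjusted p = 0.018) for aged aPD1ab against young, with adjusted p of 0.00090 to 0.042 over 15 fits. For aged IgG2a against young it was -0.69 (SE 0.20, adjusted p = 0.040), and -0.70 (adjusted p = 0.025) without aged IgG2a replicate 1, whereas 8 of the 9 fits that left out a library lost this call (adjusted p up to 0.11). Between the aged groups it was -0.35 (SE 0.32, adjusted p = 0.49), and -0.37 (adjusted p = 0.46) without that library. Summed markers of mesangial cells, pericytes and smooth muscle were also lower in aged libraries. They were at 349 to 503 CPM in young, 187 to 253 in aged IgG2a and 193 to 222 in aged aPD1ab. Against young, 5 of 10 markers were called lower in aged IgG2a and 7 in aged aPD1ab, beside 8.38% and 9.97% of all genes. Their part in the result was not tested. Markers of parietal epithelial cells, which line Bowman's capsule, were at 187 to 210, 206 to 241 and 183 to 320 CPM.

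Col7a1, the collagen of anchoring fibrils, was at 2.58 to 3.87 CPM in aged IgG2a and at 4.08 to 6.75 CPM in aged aPD1ab libraries, without overlap. Its log2 fold change between them was 0.74 (SE 0.24, edgeR adjusted p = 0.12), and 0.71 (adjusted p = 0.072) without aged IgG2a replicate 1, and young libraries spanned 3.44 to 5.65 CPM. This change was called by DESeq2 (adjusted p = 0.029), by limma (adjusted p = 0.014) and in 1 edgeR fit of all 3 groups (adjusted p = 0.039). Col8a1, a short-chain network collagen of vessels, was at 4.48 to 6.84 CPM in young, 1.80 to 6.75 in aged IgG2a and 2.95 to 15.3 in aged aPD1ab libraries. These ranges overlapped and no comparison of Col8a1 passed the test. Col8a2 and Col10a1 did not pass the filter on low counts.

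The multiplexin Col15a1 was lower in aged aPD1ab libraries than in young ones. Col15a1 (ENSMUSG00000028339, chromosome 4, 47208161 to 47313167, plus strand) bridges basement membranes to the fibrils beneath them, and 14 bases of its exons overlap those of Gm12426 on the other strand. It was at 24.5, 20.3, 28.4, 24.2 and 29.0 CPM in young, at 17.0, 24.7, 22.1 and 23.6 in aged IgG2a and at 17.9, 8.26, 12.2 and 15.9 in aged aPD1ab libraries. All aged aPD1ab libraries lay below all young ones, with the lowest value in aged aPD1ab replicate 2. The log2 fold change was -0.88 (SE 0.21, edgeR adjusted p = 0.015) against young mice. It was -0.71 (SE 0.24, adjusted p = 0.12) against aged IgG2a mice and -0.82 (SE 0.23, adjusted p = 0.031) without aged IgG2a replicate 1. Over every mapped library, limma (adjusted p = 0.012) and 1 edgeR fit of all 3 groups (adjusted p = 0.042) called it, and DESeq2 did not (adjusted p = 0.0502). Aged IgG2a and young mice differed by -0.14 (SE 0.15, adjusted p = 0.52), or -0.05 (adjusted p = 0.77) without aged IgG2a replicate 1. This small difference depends on the TMM scaling. In TPM, which does not use it, Col15a1 was at 8.93 to 10.98 in young, 4.29 to 6.88 in aged IgG2a and 2.79 to 6.79 in aged aPD1ab libraries. Both aged groups thus lay below every young library in TPM. They overlapped each other there, with or without aged IgG2a replicate 1. Their separation in CPM without that library thus also depends on the TMM scaling. Without aged aPD1ab replicate 2 the log2 fold change against young was -0.70 (adjusted p = 0.013). Endothelial markers summed to 905 to 1286, 790 to 878 and 521 to 1234 CPM in young, aged IgG2a and aged aPD1ab libraries, lowest in aged aPD1ab replicate 2, and their part in the result was not tested.

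Col18a1 (ENSMUSG00000001435, chromosome 10, 77052178 to 77166548, minus strand) was at 239, 213, 229, 297 and 226 CPM in young, at 236, 154, 165 and 144 in aged IgG2a and at 198, 207, 133 and 169 in aged aPD1ab libraries. Aged IgG2a replicate 1 sat at the young level, whereas the other aged libraries lay below every young one. The log2 fold change of aged IgG2a against young was -0.40 (SE 0.17, edgeR adjusted p = 0.11), and -0.59 (SE 0.12, adjusted p = 0.0026) without that library. Over every mapped library DESeq2 (adjusted p = 0.046) and limma (adjusted p = 0.0018) called this decrease. In 1 edgeR fit of all 3 groups it was not called (adjusted p = 0.093). Aged aPD1ab against young gave -0.43 (SE 0.16, adjusted p = 0.068). Between the aged groups it was 0.01 (SE 0.21, adjusted p = 0.98), and 0.17 (SE 0.18, adjusted p = 0.49) without aged IgG2a replicate 1.

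**Figure D3:**
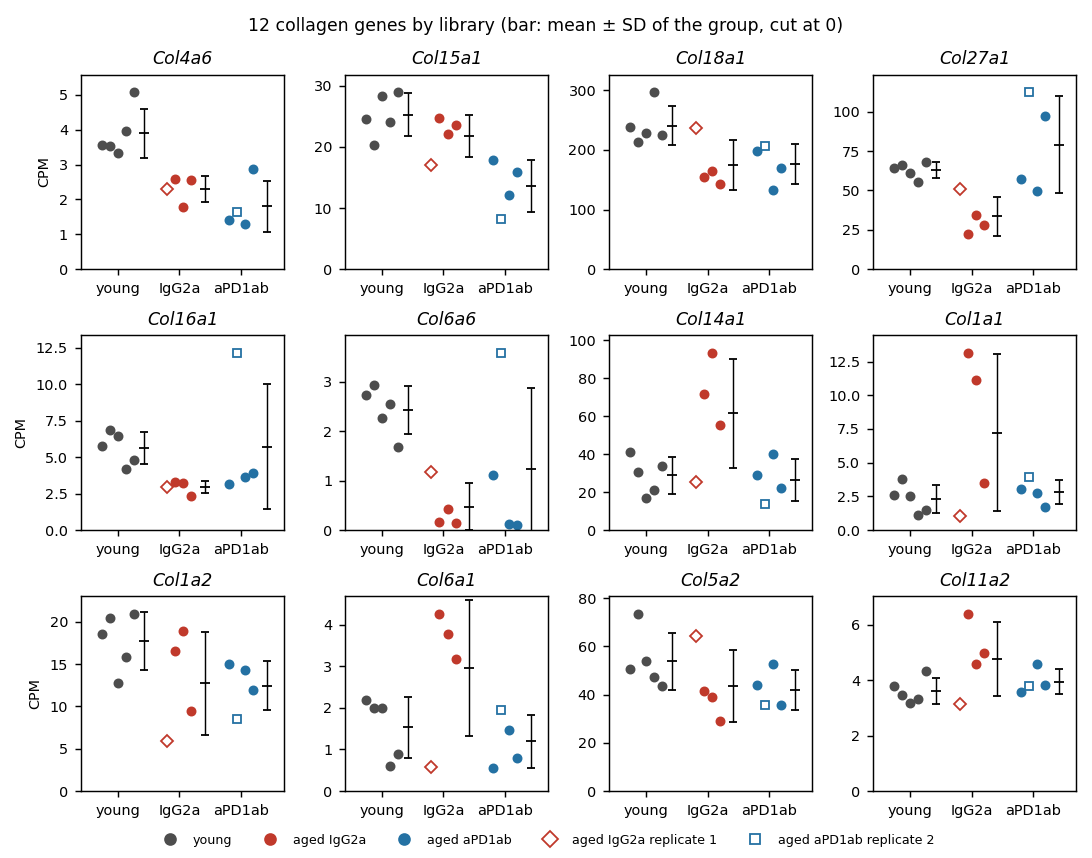
Level in CPM of 12 members in each library, by group, with the group mean and SD as bars (cut at 0). The open diamond is aged IgG2a replicate 1 and the open square aged aPD1ab replicate 2. Col4a6 lies lower in every aged library than in every young one, and Col1a1 is highest in aged IgG2a replicates 2 and 3 at 13.1 and 11.1 CPM.

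Among fibrillar collagens, Col27a1 was the 1 member called by edgeR over every mapped library, lower in aged IgG2a than in young mice. Col27a1 (ENSMUSG00000045672, chromosome 4, 63214004 to 63334991, plus strand) was at 64.0, 66.0, 60.8, 55.6 and 68.1 CPM in young, at 50.6, 22.0, 34.4 and 27.8 in aged IgG2a and at 57.0, 112, 49.5 and 97.4 in aged aPD1ab libraries. All aged IgG2a libraries lay below all young ones, and aged aPD1ab libraries lay within, below and above the young range. Against young, aged IgG2a libraries gave -0.84 (SE 0.20, edgeR adjusted p = 0.024), and -1.11 (SE 0.13, adjusted p = 0.00010) without aged IgG2a replicate 1. Aged aPD1ab against aged IgG2a gave 1.23 (SE 0.34, adjusted p = 0.11), and 1.48 (SE 0.33, adjusted p = 0.015) without that library. Over every mapped library this change was called by DESeq2, by limma and in 1 edgeR fit of all 3 groups. Aged aPD1ab against young gave 0.34 (SE 0.22, adjusted p = 0.29). The 2 highest values, in aged aPD1ab replicates 2 and 4, were more than the highest young value.

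Col1a1 and Col1a2 encode the α1 and α2 chains of collagen I, the main fibrillar collagen of scar. Col1a1 (chromosome 11, 94936224 to 94953042, plus strand) was at 2.57, 3.76, 2.54, 1.11 and 1.49 CPM in young, at 1.06, 13.1, 11.1 and 3.52 in aged IgG2a and at 3.04, 3.91, 2.72 and 1.74 in aged aPD1ab libraries. Aged IgG2a replicates 2 and 3 stood above all others, and replicate 1 was the lowest of the 13. In aged IgG2a against young the change was 1.72 (SE 0.64, edgeR adjusted p = 0.086), and 2.08 (SE 0.46, adjusted p = 0.0060) without replicate 1. DESeq2 (adjusted p = 0.029) and limma (adjusted p = 0.0084) called this rise over every mapped library. In 1 edgeR fit of all 3 groups it was not called (adjusted p = 0.070). Against aged IgG2a, aged aPD1ab gave -1.36 (SE 0.68, adjusted p = 0.22), and -1.73 (SE 0.46, adjusted p = 0.025) without replicate 1. Over every mapped library this change was called by limma and not by DESeq2. Aged aPD1ab against young gave 0.32 (SE 0.36, adjusted p = 0.56). Col1a2 (chromosome 6, 4504814 to 4541544, plus strand) was at 12.8 to 20.9 CPM in young, 5.89 to 19.0 in aged IgG2a and 8.55 to 14.97 in aged aPD1ab libraries, and passed the test in no comparison, with or without replicate 1.

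Col3a1, the collagen III chain of loose connective tissue, was also highest in aged IgG2a replicates 2 and 3, at 9.65 and 10.3 CPM beside 1.79 and 3.59 in aged IgG2a replicates 1 and 4, 1.64 to 5.92 in young and 1.71 to 4.36 in aged aPD1ab libraries. In TPM, aged IgG2a replicate 3 was at 1.47, below the highest young library at 1.68. The log2 fold change of Col3a1 in aged IgG2a against young was 0.90 (SE 0.55, edgeR adjusted p = 0.26), and 1.21 (SE 0.47, adjusted p = 0.064) without aged IgG2a replicate 1. Aged aPD1ab against aged IgG2a gave -0.93 (SE 0.56, adjusted p = 0.29) for Col3a1, and -1.25 (SE 0.43, adjusted p = 0.058) without that library. It shares 141 exonic bases with Gm47302 on its own strand. Decorin, a small proteoglycan that binds collagen fibrils and is made by fibroblasts (Dcn), was at 9.85 and 11.9 CPM in the same libraries, 2.52 in aged IgG2a replicate 1, 6.08 in replicate 4, 1.61 to 2.86 in young and 1.63 to 6.41 in aged aPD1ab libraries. The 10 fibroblast markers summed to 59.0 to 73.5, 53.7 to 63.5 and 41.7 to 74.9 CPM in young, aged IgG2a and aged aPD1ab libraries, so the sums overlapped. By marker, 1 of 7 tested (Dcn) was higher and 0 lower in aged IgG2a against young, beside 9.05% and 8.38% of all genes. Their median log2 fold change was 0.47, beside 0.04 over all genes. Without aged IgG2a replicate 1, 3 of 8 were higher (Dcn, Lum and Fbln1) and 1 lower (Pi16), beside 22.1% and 23.5%. Summed macrophage markers were at 5088 to 6866 CPM in aged IgG2a replicates 2 to 4, 2176 in replicate 1, 1556 to 2628 in young and 1570 to 3766 in aged aPD1ab libraries. The part of either cell type in the collagen I and III levels was not tested.

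Col5a2, the second most abundant member per length, was at 43.6 to 73.4 CPM in young, at 64.3, 41.4, 39.1 and 29.0 in aged IgG2a and at 35.6 to 52.8 in aged aPD1ab libraries. Its log2 fold change of aged IgG2a against young was -0.25 (SE 0.22, edgeR adjusted p = 0.44), and -0.50 (SE 0.18, adjusted p = 0.048) without aged IgG2a replicate 1, the library with the second highest value of all. Col11a2, a minor fibrillar chain, was at 3.17 to 4.33 CPM in young, 3.14 to 6.38 in aged IgG2a and 3.56 to 4.59 in aged aPD1ab libraries. It gave 0.47 (SE 0.22, adjusted p = 0.15) for aged IgG2a against young, and 0.62 (SE 0.18, adjusted p = 0.017) without replicate 1. This rise depends on the TMM scaling. In TPM, aged IgG2a replicates 3 and 4 were at 0.93 and 0.83, below the young range of 1.03 to 1.52, and replicate 2 was at 1.64. Col5a1, Col5a3 and Col24a1 passed the test in no comparison, and Col2a1 and Col11a1 did not pass the filter. Of the 9 fibrillar collagens tested, 1 was called lower and 0 higher in aged IgG2a against young mice over every mapped library. Among all genes 8.38% were lower and 9.05% higher. Without replicate 1, 2 were lower and 2 higher, beside 23.5% and 22.1% of all genes.

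Among FACITs, Col14a1 was the most abundant. Col14a1 (ENSMUSG00000022371, chromosome 15, 55307750 to 55520803, plus strand) encodes a fibril-associated collagen that binds decorin. It was at 40.9, 30.7, 17.1, 21.2 and 33.9 CPM in young, at 25.5, 71.5, 93.1 and 55.4 in aged IgG2a and at 28.9, 13.7, 39.9 and 22.3 in aged aPD1ab libraries. In CPM, aged IgG2a replicates 2 to 4 lay above all other libraries, and replicate 1 lay within the young range. For replicate 4 this depends on the TMM scaling. In TPM it was at 9.09, inside the young range of 5.45 to 14.15, and replicates 2 and 3 were at 18.0 and 18.6. The log2 fold change of aged IgG2a against young was 1.17 (SE 0.36, edgeR adjusted p = 0.0502), and 1.41 (SE 0.28, adjusted p = 0.0038) without replicate 1. Over every mapped library DESeq2 (adjusted p = 0.013) and limma (adjusted p = 0.0019) called this rise. In 1 edgeR fit of all 3 groups it was not called (adjusted p = 0.064). Aged aPD1ab against aged IgG2a gave -1.26 (SE 0.42, adjusted p = 0.12), and -1.52 (SE 0.33, adjusted p = 0.014) without replicate 1. Over every mapped library this change was called by DESeq2, by limma and in 1 edgeR fit of all 3 groups. Aged aPD1ab against young gave -0.13 (SE 0.31, adjusted p = 0.80). The macrophage and proximal tubule marker sums given above separated the same 3 libraries from the rest, and their part in the result was not tested.

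Col16a1 (ENSMUSG00000040690, chromosome 4, 130047840 to 130099283, plus strand), a FACIT of dermal and vascular matrix, was at 5.76, 6.87, 6.43, 4.19 and 4.81 CPM in young, at 2.96, 3.27, 3.23 and 2.35 in aged IgG2a and at 3.16, 12.1, 3.63 and 3.91 in aged aPD1ab libraries. All aged libraries other than aged aPD1ab replicate 2 lay below all young ones. Aged IgG2a against young gave a log2 fold change of -0.86 (SE 0.20, edgeR adjusted p = 0.023), and -0.86 (SE 0.22, adjusted p = 0.0088) without aged IgG2a replicate 1. Aged aPD1ab against young gave 0.03 (SE 0.39, adjusted p = 0.96), and -0.64 (adjusted p = 0.049) without aged aPD1ab replicate 2, when Col16a1, Col18a1 and Col6a6 joined the 2 members called lower, beside 12.1% of all genes higher and 10.5% lower. Against aged IgG2a, aged aPD1ab gave 0.95 (SE 0.46, adjusted p = 0.21), and 0.94 (SE 0.52, adjusted p = 0.21) without aged IgG2a replicate 1.

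Col12a1, a FACIT of tissues under tension, was at 9.07 to 13.3 CPM in young, 7.33 to 11.8 in aged IgG2a and 4.99 to 19.9 in aged aPD1ab libraries, with the widest spread in the last group. No comparison of Col12a1 passed the test over every mapped library, and without aged aPD1ab replicate 3, its lowest library, it was called higher in aged aPD1ab than in young mice, at 0.68 (edgeR adjusted p = 0.016). Col20a1 was at 2.94 to 4.98, 2.15 to 3.94 and 1.87 to 4.31 CPM in young, aged IgG2a and aged aPD1ab libraries and passed no test, and it shares 79 exonic bases with BX649560.1. Col9a3, whose partners Col9a1 and Col9a2 had no reads, was at 0.54 to 1.37 CPM in young, 0.59, 2.99, 1.94 and 2.28 in aged IgG2a and 0.52 to 2.32 in aged aPD1ab libraries. Its log2 fold change in aged IgG2a against young was 0.98 (SE 0.45, edgeR adjusted p = 0.14), and 1.28 (SE 0.32, adjusted p = 0.0074) without aged IgG2a replicate 1. In TPM, without TMM scaling, aged IgG2a replicates 3 and 4 were at 0.70 and 0.68, inside the young range of 0.39 to 0.995. Replicate 2 was at 1.37. Col9a3 overlaps Tcfl5 on the other strand over 234 exonic bases, and as the strand setting of the counting is not given in the sources used here, reads within those bases cannot be assigned to either gene. Col19a1 was at 0 to 0.94 CPM and was called lower in aged IgG2a than in young mice by edgeR when replicate 1 was left out, with a log2 fold change of -2.02 (SE 0.75, adjusted p = 0.047), and at -1.28 (SE 0.66, adjusted p = 0.19) with it.

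**Figure D4:**
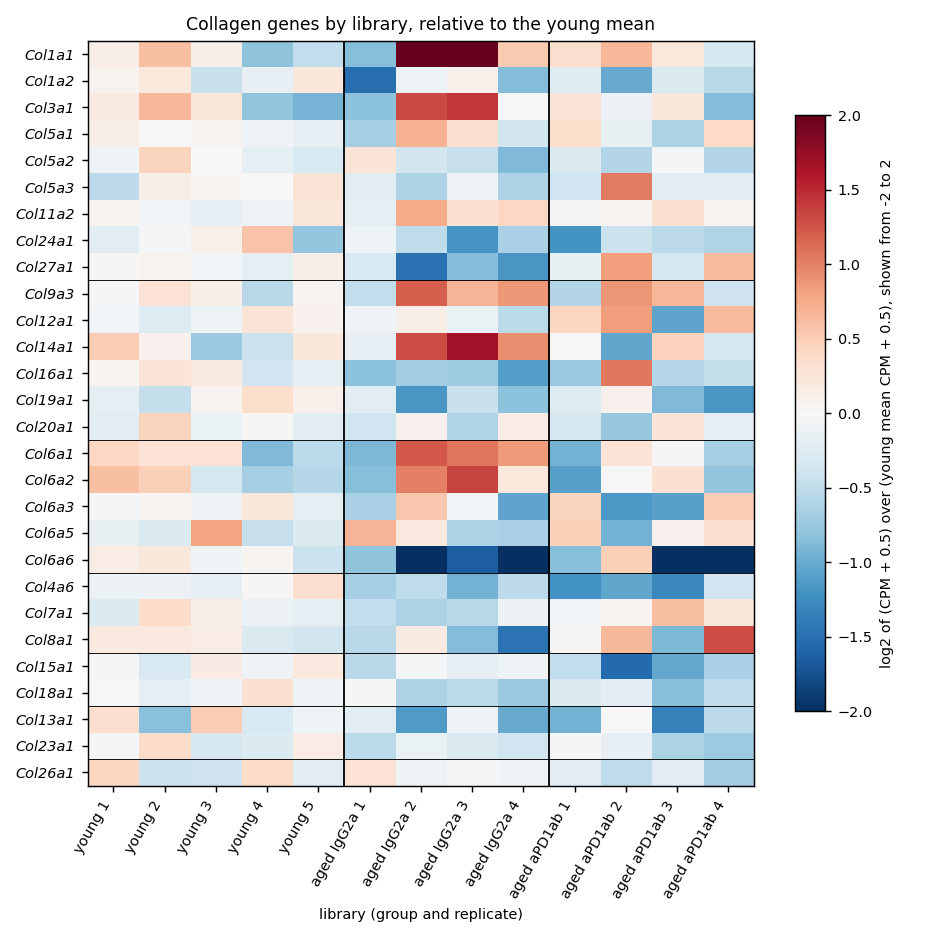
Log2 ratio of (CPM + 0.5) to (young mean CPM + 0.5) of the 28 members tested in each of 13 libraries, with black lines between groups and between classes and colour from -2 to 2. Col1a1, Col3a1, Col14a1, Col6a1 and Col6a2 are red in aged IgG2a replicates 2 and 3 and not in replicate 1, and Col4a6 is blue in all aged libraries.

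Among collagen VI chains, Col6a6 was the 1 called by edgeR over every mapped library. Collagen VI is built from an α1 and an α2 chain with one further chain, most often that of Col6a3. Col6a1 (chromosome 10, 76708792 to 76726168, minus strand) was at 2.20, 1.98, 1.98, 0.60 and 0.90 CPM in young, at 0.59, 4.25, 3.77 and 3.18 in aged IgG2a and at 0.56, 1.95, 1.47 and 0.79 in aged aPD1ab libraries. In CPM, aged IgG2a replicates 2 to 4 were above all other libraries, with 46 reads in replicate 4. In TPM, without TMM scaling, replicates 3 and 4 were at 1.20 and 0.84, below the highest young library at 1.26. Against young, aged IgG2a libraries gave 1.01 (SE 0.56, edgeR adjusted p = 0.22), and 1.35 (SE 0.38, adjusted p = 0.015) without replicate 1, and that of aged aPD1ab against aged IgG2a was -1.32 (SE 0.63, adjusted p = 0.21) and -1.68 (SE 0.44, adjusted p = 0.023). Col6a2, the neighbouring gene, gave 0.91 (SE 0.60, adjusted p = 0.30) and 1.25 (SE 0.47, adjusted p = 0.052) for the first comparison. Col6a3 was at 6.90 to 9.43 CPM in young, 3.59 to 11.8 in aged IgG2a and 3.34 to 11.4 in aged aPD1ab libraries, and gave -0.12 (SE 0.30, adjusted p = 0.80) and 0.02 (SE 0.30, adjusted p = 0.96).

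Col6a6 (ENSMUSG00000043719, chromosome 9, 105687809 to 105828160, minus strand), which encodes an alternative to the Col6a3 chain, was lower in aged IgG2a mice. It was at 2.74, 2.93, 2.26, 2.55 and 1.68 CPM in young, at 1.17, 0.16, 0.43 and 0.14 in aged IgG2a and at 1.12, 3.58, 0.11 and 0.11 in aged aPD1ab libraries. All aged libraries other than aged aPD1ab replicate 2 lay below all young ones. The log2 fold change of aged IgG2a against young was -2.19 (SE 0.52, edgeR adjusted p = 0.025), and -3.23 (SE 0.41, adjusted p = 0.00014) without replicate 1, which held the highest value of its group. Aged aPD1ab against young gave -0.97 (SE 0.77, adjusted p = 0.39) for Col6a6, and -2.41 (adjusted p = 0.024) without aged aPD1ab replicate 2, while limma gave -3.04 (adjusted p = 0.010) over every mapped library. The gene did not pass the filter between the aged groups. It overlaps Gm38314 on the other strand over 63 exonic bases. Col6a5 passed no test and Col6a4 did not pass the filter.

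Of the transmembrane collagens, Col13a1 and Col23a1 were tested and passed in no comparison, with log2 fold changes of aged aPD1ab against young of -1.13 (SE 0.73) and -0.54 (SE 0.34). Col26a1 was at 4.58 to 6.13 CPM in aged IgG2a and 2.84 to 4.20 CPM in aged aPD1ab libraries, without overlap. In TPM these ranges overlapped, at 0.66 to 1.67 and 0.83 to 1.21. The log2 fold change of Col26a1 was -0.51 (SE 0.21, edgeR adjusted p = 0.15), or -0.42 (SE 0.21, adjusted p = 0.16) without aged IgG2a replicate 1. Its young libraries spanned 3.54 to 6.84 CPM. Col17a1, Col25a1 and Col28a1 did not pass the filter.

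Ratios within a library remove the scaling between libraries, and are given per exon length as values with no test. Col1a1 over Col1a2 was 0.13 to 0.38 in young, 0.34 in aged IgG2a replicate 1, 0.70 to 1.5 in aged IgG2a replicates 2 to 4, and 0.28 to 0.87 in aged aPD1ab libraries. The young libraries thus held less Col1a1 than Col1a2 per length, and 2 aged IgG2a libraries held more. Col6a1 over Col6a3 was 0.17 to 0.76 in young, 0.33 in aged IgG2a replicate 1, 0.98 to 2.42 in the other aged IgG2a and 0.14 to 1.60 in aged aPD1ab libraries. Col14a1 over Col12a1 was 3.47 to 8.50 in young, 5.33 in aged IgG2a replicate 1 and 13.1 to 20.5 in the others, and 1.49 to 17.3 in aged aPD1ab libraries. Col15a1 over Col18a1 was 0.090 to 0.142 in young, 0.079 and 0.148 to 0.182 in aged IgG2a, and 0.044 to 0.104 in aged aPD1ab libraries. For the first 3 ratios, aged IgG2a replicate 1 lay within the range of young libraries, and the other 3 libraries of its group lay above it.

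**Figure D5:**
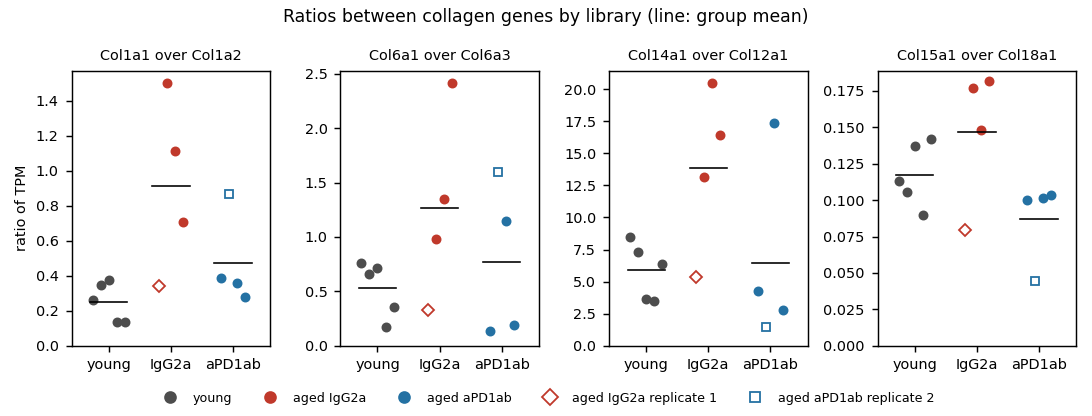
Ratios of TPM between 4 pairs of collagen genes in each library, by group, with the group mean as a line. The open diamond is aged IgG2a replicate 1 and the open square aged aPD1ab replicate 2. Col1a1 over Col1a2 reaches 0.70 to 1.5 in the 3 other aged IgG2a libraries and 0.13 to 0.38 in young ones.

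Genes that process collagen, bind it or sense it were read from hand-written lists. Of 29 processing and crosslinking genes tested in aged IgG2a against young mice, 2 were higher and 3 lower, beside 9.05% and 8.38% of all genes. The glycosyltransferase Colgalt1 gave 0.91 (edgeR adjusted p = 0.023), the lysyl hydroxylase Plod2 -1.32 (adjusted p = 0.020), the prolyl hydroxylase subunit P4ha2 -1.11 (adjusted p = 0.022) and the lysyl oxidase Loxl2 -1.28 (adjusted p = 0.019). Without aged IgG2a replicate 1 these counts were 6 higher and 11 lower, beside 22.1% and 23.5%. Of 28 tested in aged aPD1ab against young mice, 1 was higher (Crtap) and 1 lower (Loxl2, -0.98, adjusted p = 0.013), beside 12.4% and 9.97%. Of 27 between the aged groups 0 were called by edgeR, as were 0.0% of all genes. Without replicate 1, 5 were higher and 2 lower, beside 17.1% and 13.2%.

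Of 8 collagen receptors tested, 1 was higher and 0 lower in aged IgG2a than in young mice, beside 9.05% higher and 8.38% lower among all genes. It was the leukocyte receptor Lair1, at 1.28 (edgeR adjusted p = 0.039), and 1.55 (adjusted p = 0.00016) without aged IgG2a replicate 1. Without that library 1 receptor was higher (Lair1) and 4 lower (Mrc2, Itga1, Ddr1 and Itga10), beside 22.1% and 23.5% of all genes. In aged aPD1ab against young mice 0 receptors were higher and 2 integrin chains, Itga1 and Itga2, were lower, beside 12.4% and 9.97%.

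Of 14 matrix partners tested in aged IgG2a against young mice, Dcn was higher (1.83, edgeR adjusted p = 0.021) and Sparc lower (-0.64, adjusted p = 0.016), again beside 9.05% and 8.38%. Without aged IgG2a replicate 1, Dcn gave 2.11 (adjusted p = 0.00011) and Sparc -0.65 (adjusted p = 0.0019). Of 16 partners then tested, 4 were higher (Fn1, Dcn, Lum and Mfap4) and 3 lower (Sparc, Fbn1 and Eln), beside 22.1% and 23.5% of all genes. In aged aPD1ab against young mice 0 of 14 were higher and 5 lower (Fmod, Thbs2, Tnxb, Fbn1 and Eln), beside 12.4% and 9.97% of all genes. Of the 5 collagen IV genes left out by the rule, 5 were lower in aged IgG2a than in young mice, beside 8.38% of all genes. Without aged IgG2a replicate 1, 5 were lower too, beside 23.5%. In aged aPD1ab against young mice 3 were lower, beside 9.97%. Of 10 podocyte markers, 7 were lower and 1 higher in aged IgG2a than in young mice, beside 8.38% and 9.05%. Without aged IgG2a replicate 1 these counts were also 7 and 1, beside 23.5% and 22.1%. In aged aPD1ab against young mice 2 podocyte markers were lower, beside 9.97%.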

How the data were processed

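The authors captured a podocyte fraction by magnetic sorting with antibodies to nephrin and sequenced TruSeq libraries, and the deposited table gives whole-number read counts per Ensembl gene, not normalized. The submitters' processing notes name HISAT2 and featureCounts and the build mm10. Versions and the strand setting are not given in the sources used here. The column headers carry numbers that are in none of the labels, which the study's plot of these libraries ties to groups for 13 of 15 columns. The 2 others were not used, so 4 of 5 mice listed in the labels entered each aged group. Replicate numbers follow the order of the columns within a group and only name a library. The lowest mean chi-square per gene between replicates was 12.7, so no library was counted as deposited again.

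Symbols, positions and exon union lengths came from GENCODE M21 (GRCm38), matched for 45229 of 46078 genes. Each pair of groups was fitted alone on the counts with edgeR 4.0.16 (quasi-likelihood, robust, TMM, filterByExpr) in R 4.3.3, with Benjamini-Hochberg adjustment over all genes tested. A gene was called at an adjusted p under 0.05. CPM use TMM-scaled library sizes and TPM the exon union length. Standard errors were taken from the log2 fold change and the F statistic. The fits were run on simulated data with 1 spread for all genes, no outlying library and changes only in genes with many reads. That run therefore does not cover a library such as aged IgG2a replicate 1, nor members with few reads. Alternatives used RLE size factors, no filter, DESeq2 1.42.0, limma 3.58.1 (voom with quality weights), 1 fit of all 3 groups, a change over 2-fold, CPM of raw totals, and each library left out. Totals and floors of 3 counts cover counting error only.

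The rule for members reads symbols alone, but the gene family and the lists were chosen with earlier results of these data known. Members described by library were those called in any comparison and the 12 highest by mean TPM, 14 in all. Col1a1, Col3a1, Col5a1, Col6a1, Col6a2, Col7a1, Col9a3 and Col19a1 were added after their values were seen. Marker and context lists were written by hand. p-values measure the spread between mice, 1 library each. Protein sequences were not used here.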

Additional observations from a re-analysis of the deposited data

Results flagged for a closer look

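Col16a1 in aged aPD1ab replicate 2, at 12.1 CPM, stood apart from the other 3 libraries of its group, at 3.16 to 3.91 CPM, by a gap of 0.917 of the group's range, above the critical value of 0.829 for 4 samples. This was the 1 gap past that limit among 66 groups of values examined for it. Chance passes the limit in about 1 in 20 such groups, a larger share than 1 in 66. The same library held the highest summed proximal tubule markers of all, at 14625 CPM, the lowest summed podocyte markers, at 276 CPM, and the lowest summed lymphocyte and plasma cell markers, at 46.9 CPM, and their part in the value was not tested.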

How the results depend on the processing

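The counts of members called depended on the libraries and on the test. For aged IgG2a against young mice (0 higher, 4 lower), leaving out 1 library at a time gave 0 to 5 higher and 0 to 7 lower, with 5 and 7 without aged IgG2a replicate 1. DESeq2 gave 2 higher and 5 lower, and limma 6 and 6, beside the shares given above. In 1 fit of all 3 groups 0 were higher and 1 lower, beside 6.36% and 7.61% of all genes. With a change over 2-fold 0 were higher and 1 lower, beside 621 and 732 of 15953 genes. For aged aPD1ab against aged IgG2a mice (0 and 0), leave-one-out gave 0 to 1 higher and 0 to 4 lower, again reached without aged IgG2a replicate 1. DESeq2 gave 2 higher and 1 lower, limma 2 and 8, and 1 fit of all 3 groups 2 and 2. For aged aPD1ab against young mice (0 higher, 2 lower), leave-one-out gave 0 to 1 higher and 2 to 5 lower, the 5 without aged aPD1ab replicate 2 and the 1 without aged aPD1ab replicate 3. Among all genes 10.5% were lower without aged aPD1ab replicate 2, and 10.6% higher without aged aPD1ab replicate 3. Limma gave 4 lower and a change over 2-fold 1 lower, the latter beside 430 of 15986 genes. RLE size factors left every count of members as it was. With no filter 3 were lower in aged IgG2a against young mice, beside 4.09% of all genes. Over the whole table, leave-one-out gave 260 to 3584 genes higher and 293 to 3813 lower in aged IgG2a against young mice (1443 and 1337), 0 to 2702 and 0 to 2086 between the aged groups (0 and 0), and 1293 to 2122 and 1024 to 1746 in aged aPD1ab against young mice (1984 and 1594).

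Signs over all fits were compared only for the members described by library, including those added after their values were seen. Among these, log2 fold changes that turned sign were those of members not called in the comparison concerned over every mapped library. Without aged aPD1ab replicate 2, Col16a1 was both turned and called in aged aPD1ab against young mice (-0.64, edgeR adjusted p = 0.049). In limma they were 0.018 for Col12a1 and 0.048 for Col6a3 in aged IgG2a against young, 0.050 for Col5a2 between the aged groups, and -0.46 for Col16a1, 0.11 for Col6a3, -0.031 for Col1a1 and -0.33 for Col9a3 in aged aPD1ab against young mice. For Col18a1 between the aged groups, RLE size factors gave -0.0089, no filter -0.015 and DESeq2 -0.0090. With 1 library left out, the following ranges held both signs. For aged IgG2a against young, the range was -0.19 to 0.021 for Col12a1, -0.51 to 0.072 for Col6a3, -0.27 to 0.034 for Col20a1 and -0.15 to 0.41 for Col5a1. For aged aPD1ab against aged IgG2a, the range was -0.090 to 0.17 for Col18a1, -0.20 to 0.17 for Col5a2, -0.30 to 0.22 for Col1a2, -0.25 to 0.42 for Col6a3, -0.28 to 0.092 for Col20a1 and -0.30 to 0.24 for Col5a1. For aged aPD1ab against young, the range was -0.64 to 0.23 for Col16a1, -0.40 to 0.085 for Col14a1, -0.40 to 0.15 for Col6a3, -0.26 to 0.19 for Col3a1, -0.042 to 0.65 for Col9a3 and -0.084 to 0.27 for Col5a1. Other members turned too without aged IgG2a replicate 1. Col6a5 went from 0.14 to -0.36 for aged IgG2a against young. Between the aged groups Col13a1 went from -0.15 to 0.17 and Col24a1 from -0.21 to 0.13. The cause of these shifts was not tested. No paired analysis was made, since the groups were different mice.

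Col13a1 and Col19a1 rest on few reads, and Col6a6 had 2 to 8 counts in 5 libraries. Aged groups have 4 libraries, 1 mouse each, and 2 columns could not be placed.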
